A study of Mus musculus with 1 sample.

Results

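A set of 7 genes named as regulatory T cell identity genes was followed through 1 library of blood T cells from a mouse with small cell lung cancer (SCLC). They were Foxp3, Il2ra, Ikzf2, Ikzf4, Nrp1, Izumo1r and Gpm6b, out of 32285 genes in the matrix. The set is given by name, with no threshold on values. It and the gene lists used below were chosen with earlier results of these data known. Their counts beside all genes are therefore a description and not a test. Whether the name suits Gpm6b could not be settled in this library. Foxp3 was found in 1 of the 30 CD4 barcodes that held Gpm6b (3.33%, 0.0844 to 17.2) and Il2ra in none. In all CD4 barcodes the shares were 4.07% and 2.44%, so these counts are too few to tell. Nrp1 was found in 19 of the 30 and Izumo1r in 16. The mouse belonged to the vehicle group, which was given phosphate-buffered saline (PBS) every 3 days. The study's methods describe these treatment groups in C57BL/6 mice in which Rb1 and Trp53 are deleted conditionally, by Cre that an adenovirus carries into the airways, so that tumours arise in the lung; the age and sex of this animal are not given in the sources used here. Blood was freed of red cells, T cells were enriched by negative selection, and the same cells were read for T cell receptor (TCR) contigs and for gene expression with 10x Genomics kits. The study set this treatment against anti-PD-1 combined with an ERBB2 inhibitor, and the combination arm was not analysed here. With 1 mouse there is no replicate error, and every interval given is an exact 95% interval that covers counting error only.

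Regulatory T cells are CD4 T cells that restrain other immune cells, and the forkhead transcription factor Foxp3 sets their identity. Their surface carries the high-affinity receptor for IL-2, of which Il2ra encodes the alpha chain. This receptor lets them take up a cytokine that they hardly make themselves. The Ikaros family factors Helios (Ikzf2) and Eos (Ikzf4), the semaphorin and VEGF co-receptor neuropilin 1 (Nrp1) and the folate receptor 4 protein (Izumo1r) are commonly used with Foxp3 to describe these cells. None of these genes other than Foxp3 is reserved to them, since activated, anergic or exhausted T cells can carry several. Gpm6b encodes a proteolipid membrane glycoprotein best known from the nervous system.

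Of 300213 barcodes in the matrix, 1600 held at least 1331 unique molecular identifiers (UMIs, each standing for 1 captured transcript) and were used, with 1334 to 18399 UMIs each. A UMI of Cd4 and none of Cd8a or Cd8b1 placed 369 barcodes in the CD4-only class, and the opposite pattern placed 719 in the CD8-only class. Both coreceptors were seen in 49 barcodes and neither in 463. A CD3 UMI or a TCR contig, the defining marks of a T cell, was present in 350 of the 369 CD4-only and in 685 of the 719 CD8-only barcodes. Depth differed between the classes, with a median of 3390 UMIs in CD4-only and 5567 in CD8-only barcodes. As a class that should lack most of these genes, 82 barcodes with B cell markers were kept, at a median of 3678 UMIs. A further trait of the library was that 141 CD4-only barcodes (38.2%) and 208 CD8-only barcodes (28.9%) held under 10% of their UMIs in ribosomal protein genes. These are called low-ribosomal barcodes here. Of other lineages the CD4-only class held 169 UMIs of platelet markers, spread over 50 barcodes, 49 of B cell, 42 of NK cell, 22 of monocyte, 16 of erythroid, 7 of SCLC tumour cell and 3 of neutrophil markers. The plasmacytoid dendritic cell markers were at 0. The platelet list had a median ratio of 2.25 between CD4-only and CD8-only barcodes, and its part in the results was not tested.

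Foxp3 and Gpm6b are both X-linked but lie far apart, Foxp3 at chrX:7579676-7595243 and Gpm6b at chrX:166238943-166389033 (GRCm38.p6, RefSeq), and the other members lie on other chromosomes. Promoter sequence, from 250 bases before to 50 bases after an annotated start, was matched for 5 of the 7 genes, those other than Ikzf2 and Ikzf4. The first Foxp3 start site and the Gpm6b start site are shown because both genes are used below to split the same CD4-only class. Letters that matched a searched motif are in capitals.
Foxp3, chrX:7579426-7579725, + strand: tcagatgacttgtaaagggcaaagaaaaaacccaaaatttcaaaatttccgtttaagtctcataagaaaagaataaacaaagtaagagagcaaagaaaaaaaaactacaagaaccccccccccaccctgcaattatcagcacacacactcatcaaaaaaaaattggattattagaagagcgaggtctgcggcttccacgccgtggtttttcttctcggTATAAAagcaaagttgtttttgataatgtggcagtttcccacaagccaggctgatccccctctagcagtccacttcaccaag
Gpm6b, chrX:166238693-166238992, + strand: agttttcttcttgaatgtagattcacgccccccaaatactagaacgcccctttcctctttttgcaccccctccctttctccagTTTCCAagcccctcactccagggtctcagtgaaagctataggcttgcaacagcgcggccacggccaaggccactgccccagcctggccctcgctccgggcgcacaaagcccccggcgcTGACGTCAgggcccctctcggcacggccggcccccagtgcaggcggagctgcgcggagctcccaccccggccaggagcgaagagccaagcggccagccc
The motifs searched on both strands were the TATA box (TATAAA), the core of Runx sites (TGTGGT), the cAMP response element (TGACGTCA), a GATA factor site (GATAAG) and the core of NFAT sites (TTTCCA). The first Foxp3 window held the TATA box, present in 13.6% of 32851 promoters of this length. The Gpm6b window held the cAMP response element, present in 1.79% of promoters. The NFAT core, present in 21.4%, was in the Gpm6b window, in that of Izumo1r and in that of another Foxp3 start site. The Runx core, found in 16.8% of promoters, matched only Izumo1r among the members, and the GATA factor site, in 7.44% of promoters, matched none of them. GC content was 40.7% in the first Foxp3 window and 65.3% in the Gpm6b window, against a median of 52.7% over all promoters. A match of letters is a description and not a bound site.

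All 7 genes were detected in both coreceptor classes, and each was found in a larger share of CD4-only barcodes. Foxp3 had a UMI in 15 CD4-only barcodes, 4.07% of the class (2.29 to 6.62), with 29 UMIs in all and up to 14 in 1 barcode. In the CD8-only class it had 6 UMIs in 5 barcodes, 0.695%. No B barcode held Foxp3, and for 82 barcodes the floor of 3 counts is a share of 3.66%. The exact interval of the B share takes in both the CD4-only and the CD8-only share. The B class is therefore too small to decide whether the Foxp3 UMIs of either class reflect expression. Free RNA, estimated from 20532 barcodes of 10 to 50 UMIs and scaled to 5% of each barcode, would give 0.351 Foxp3 UMIs in the CD4-only class and 1.11 in the CD8-only class, where 6 were seen. One of the 5 CD8-only barcodes held 2 Foxp3, 3 Il2ra and 1 Izumo1r UMI, and the other 4 held 1 Foxp3 UMI each.

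Il2ra was the sparsest member in CD4-only barcodes, with 11 UMIs in 9 of them (2.44%, 1.12 to 4.58). It was seen in 6 CD8-only barcodes (0.834%) and in 2 of 82 B barcodes (2.44%, 0.297 to 8.53), and the CD4-only and B intervals overlap. Ikzf2 was found in 48 CD4-only barcodes (13.0%, 9.75 to 16.9) with 202 UMIs, and the highest barcode held 20. It was also the member most often seen in the CD8-only class, in 62 barcodes (8.62%, 6.68 to 10.9) with 169 UMIs. The related factor Ikzf4 stayed near single UMIs, with 17 UMIs in 14 CD4-only barcodes (3.79%) and 14 UMIs in 11 CD8-only barcodes (1.53%).

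The surface receptor Nrp1 was detected in 51 CD4-only barcodes (13.8%, 10.5 to 17.8) and 28 CD8-only barcodes (3.89%, 2.60 to 5.58). Izumo1r was the most widely detected member, in 66 CD4-only barcodes (17.9%, 14.1 to 22.2) against 36 CD8-only barcodes (5.01%, 3.53 to 6.86). Gpm6b was found in 30 CD4-only barcodes (8.13%, 5.55 to 11.4), and the CD8-only class held 7 UMIs in 7 barcodes (0.974%, 0.392 to 2.00). At full depth Foxp3, Nrp1, Izumo1r and Gpm6b had CD4-only intervals that lay wholly above their CD8-only ones. The intervals of Il2ra, Ikzf2 and Ikzf4 overlapped between the classes, which differed in depth. How many of all genes had intervals apart in this way is not given here. None of Ikzf2, Ikzf4, Nrp1, Izumo1r or Gpm6b had a UMI in a B barcode. When each barcode was thinned to 2500 UMIs, which left out 89 CD4-only and 61 CD8-only barcodes, the CD4-only shares were 2.86% for Foxp3, 11.1% for Ikzf2, 10.7% for Nrp1, 14.3% for Izumo1r and 5.71% for Gpm6b. The thinned CD8-only shares were 0.152%, 4.71%, 1.67%, 2.89% and 0.608% in the same order. Thinned Il2ra was at 1.79% (0.582 to 4.12) in CD4-only and 0% (0 to 0.559) in CD8-only barcodes. Thinned Ikzf4 was at 2.50% (1.01 to 5.08) and 1.22% (0.526 to 2.38). At this equal depth the intervals of Ikzf2 (7.65 to 15.3 against 3.22 to 6.62) and Il2ra no longer overlapped, while those of Ikzf4 still did.

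**Figure D1:**
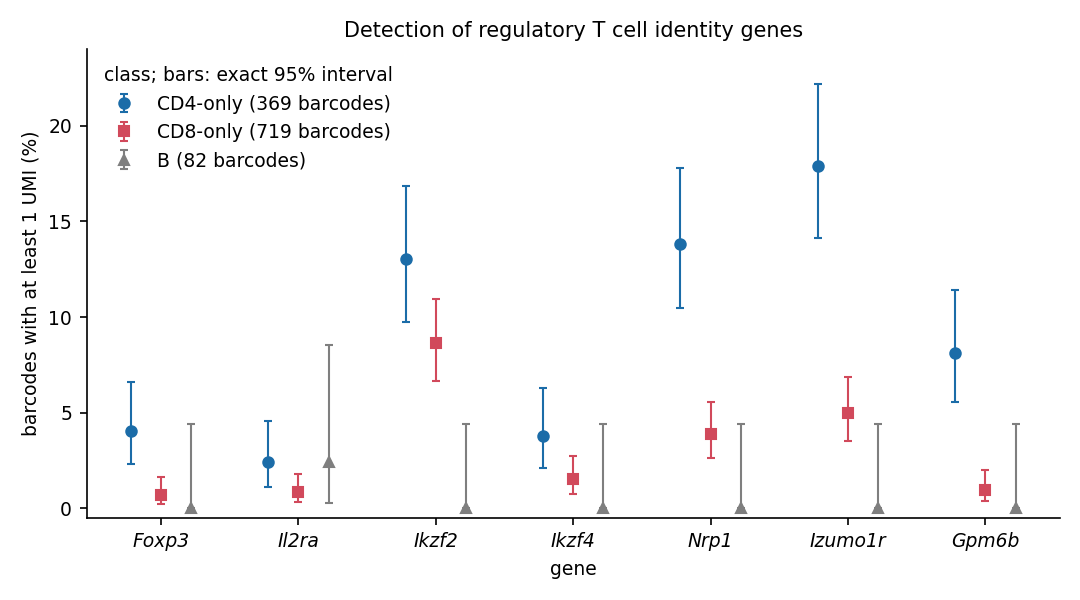
Share of CD4-only, CD8-only and B barcodes with a UMI of each of the 7 genes, in percent, with exact 95% intervals as bars. In CD4-only barcodes the shares run from 2.44% for Il2ra to 17.9% for Izumo1r, and the only B barcodes with a UMI are the 2 for Il2ra.

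Pooled over the class and scaled to 10000 UMIs, the difference held for every member. Gpm6b stood at 0.465 UMIs per 10000 in CD4-only and 0.0151 in CD8-only barcodes, a ratio of 30.7 (14.1 to 79.3). Foxp3 stood at 0.198 against 0.0130, a ratio of 15.3 (6.24 to 45.0), or 7.97 without the barcode of 14 UMIs. Izumo1r and Nrp1 had ratios of 7.84 and 7.01. Il2ra, Ikzf4 and Ikzf2 fell just short of 4-fold, at 3.87 (1.46 to 10.6), 3.84 and 3.78 (3.07 to 4.66). A ratio of at least 4 was reached by 4 of the 7 members, and by 128 of all 10274 genes with at least 20 UMIs in the classes together (1.25%), whose median ratio was 1.16. In the order of all those ratios Gpm6b ranked 11 and Foxp3 19. Because the members were chosen with earlier results of these data known, these numbers describe the set and do not test it. Reads in the 1435 bases where Foxp3 overlaps the neighbouring gene Ccdc22 may be counted for either, since the sources used here do not state whether counting used strand. Ccdc22 had a UMI in 7 of the 15 Foxp3-positive CD4-only barcodes (46.7%) and in 26 of the other 354 (7.34%). Over all barcodes used it had a UMI in 9 of the 40 with Foxp3 (22.5%) and in 6.92% of the others.

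Barcodes in which neither coreceptor was captured held a sizeable part of the signal. Among the 463 barcodes without coreceptor UMIs, 273 had a CD3 UMI or a TCR contig. Foxp3 was found in 16 of these 273 (5.86%, 3.39 to 9.34), a share that overlapped the interval of the CD4-only class, and in 1 of the other 190. Ikzf2 was found in 58 of the 273 (21.2%), Izumo1r in 31 (11.4%), Nrp1 in 25 (9.16%) and Gpm6b in 8 (2.93%). Over the library 40 barcodes held Foxp3, with 89 UMIs. They were 15 CD4-only barcodes with 29 UMIs, 17 without coreceptor UMIs with 40 UMIs, 3 with both coreceptors and 14 UMIs, and 5 CD8-only barcodes with 6 UMIs. Among the 40 barcodes 27 held a single Foxp3 UMI, and 12 of these 27 had no UMI of another member. The remaining 13 barcodes held at least 2 Foxp3 UMIs, and all 13 also held another member. Ikzf2 was the member most often beside Foxp3, in 21 of the 40, followed by Nrp1 in 19, Izumo1r in 16, Il2ra in 14, Ikzf4 in 7 and Gpm6b in 2. Within the CD4-only class 13 of the 15 barcodes held a single Foxp3 UMI. The CD4-only barcode richest in Foxp3 held 11752 UMIs, with 14 of Foxp3, 12 of Ikzf2, 2 of Nrp1 and 1 each of Il2ra and Ikzf4.

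At least 2 members were seen together in 56 of 369 CD4-only barcodes (15.2%, 11.7 to 19.3), against 13 of 719 CD8-only barcodes (1.81%, 0.966 to 3.07) and 0 of 82 B barcodes. After thinning the numbers were 35 of 280 (12.5%) and 3 of 658 (0.456%). At least 3 members were seen in 29 CD4-only barcodes (7.86%) and in 1 CD8-only barcode (0.139%). No member was found in 239 CD4-only barcodes, and the highest number, 6 of the 7, was found in 1.

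The members differed in how far they were limited to barcodes with Foxp3. Il2ra was the closest to it, since 6 of its 9 CD4-only barcodes also held Foxp3 (66.7%, 29.9 to 92.5), and 3 of the 354 Foxp3-negative barcodes held Il2ra (0.847%). The other members were mostly found without Foxp3. Foxp3 was present in 8 of 48 Ikzf2 barcodes (16.7%, 7.48 to 30.2) and 2 of 14 Ikzf4 barcodes (14.3%, 1.78 to 42.8). It was also present in 7 of 51 Nrp1 barcodes (13.7%) and 6 of 66 Izumo1r barcodes (9.09%). The intervals of Ikzf2 and Ikzf4 overlap that of Il2ra. Gpm6b was at the far end, with Foxp3 in 1 of its 30 barcodes (3.33%, 0.0844 to 17.2), a share whose interval takes in the 4.07% of the whole class. Foxp3-positive and Foxp3-negative mean with and without a UMI here, and at this depth a barcode without a UMI can still come from a cell that expressed the gene.

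Read from the other side, Ikzf2 was found in 8 of 15 Foxp3-positive barcodes (53.3%, 26.6 to 78.7) and in 40 of 354 Foxp3-negative ones (11.3%). Nrp1 was found in 7 (46.7%) against 44 (12.4%), and Izumo1r in 6 (40%) against 60 (16.9%). Gpm6b was found in 1 (6.67%) against 29 (8.19%), shares that lay close together. In the CD4-only class 5 Foxp3-positive barcodes, each with 1 Foxp3 UMI, held no other member, and the other 10 each held at least 2. Thinning left 8 Foxp3-positive barcodes, of which 2 kept Ikzf2, 2 Izumo1r, 1 Nrp1, 1 Il2ra and 1 Gpm6b, too few to compare shares. Among Foxp3-negative barcodes 46 of 354 (13.0%) held at least 2 other members, 20 held both Ikzf2 and Nrp1, and 8 held Ikzf2, Nrp1 and Gpm6b together.

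Pairs with Gpm6b lay mostly in barcodes without a Foxp3 UMI, as did most of the class (354 of 369). Nrp1 was present in 19 of 30 Gpm6b-positive CD4-only barcodes (63.3%, 43.9 to 80.1) and in 32 of 339 Gpm6b-negative ones (9.44%). Izumo1r was present in 16 (53.3%) against 50 (14.7%), and Ikzf2 in 12 (40%) against 36 (10.6%). Il2ra had no UMI in the 30 Gpm6b-positive barcodes and was present in 9 of the other 339. Thinned to 2500 UMIs, 9 of 16 Gpm6b-positive barcodes still held Nrp1 and 8 held Izumo1r. The pair seen most often was Nrp1 with Ikzf2, in 26 barcodes, which is 51.0% of the Nrp1-positive barcodes against 6.92% of the Nrp1-negative ones. Of these 26 barcodes 20 were among the 354 Foxp3-negative ones, and the rest were among the 15 with Foxp3. CD8-only barcodes showed little of this. Of their 62 Ikzf2 barcodes 4 held Nrp1 (6.45%), 4 held Izumo1r, and none held Foxp3 or Gpm6b. Those 2 genes were found in only 5 and 7 of all 719 CD8-only barcodes.

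**Figure D2:**
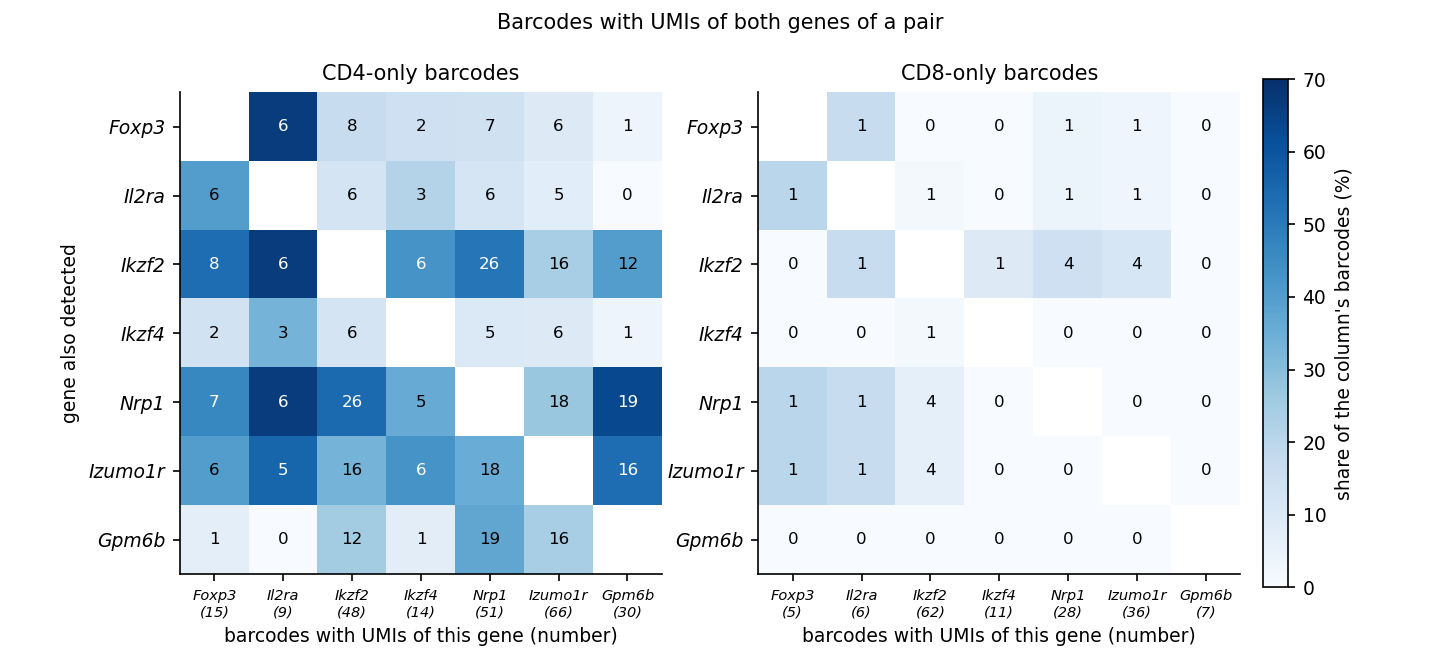
Number of barcodes with UMIs of both genes of a pair (printed in the cell) and its share of the barcodes with the column's gene (colour, in percent), in CD4-only and CD8-only barcodes. In the CD4-only panel the Il2ra column reaches 66.7% in the Foxp3 row, and the Gpm6b column reaches 63.3% for Nrp1 and 3.33% for Foxp3.

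**Figure D3:**
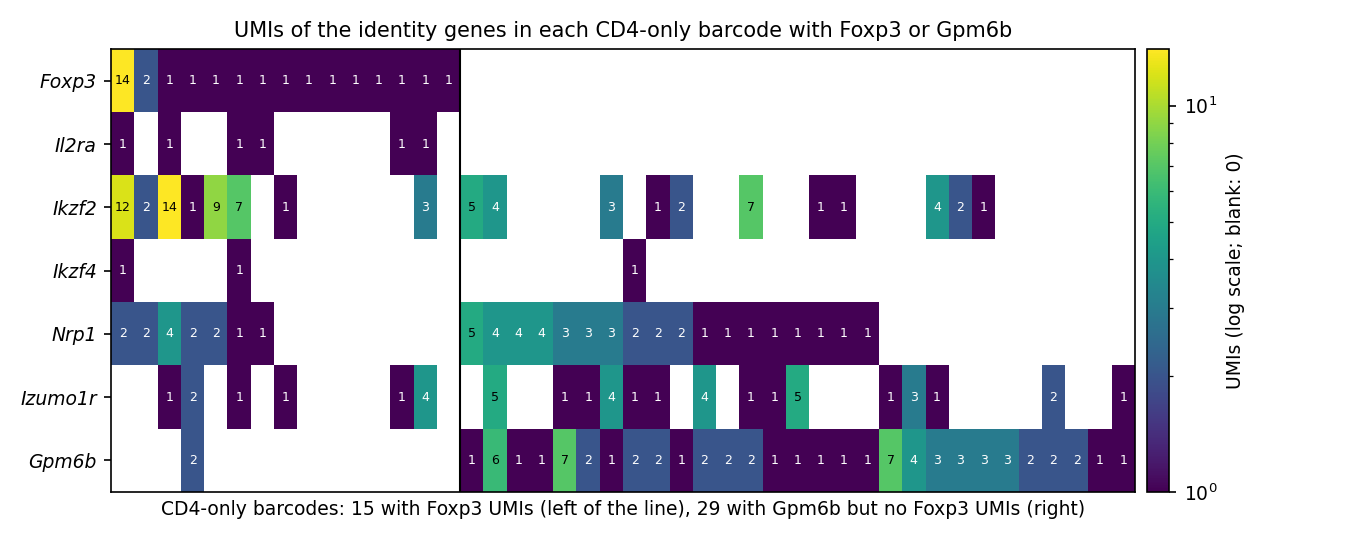
UMIs of each of the 7 genes (rows; numbers and colour on a log scale, blank for 0) in each CD4-only barcode with Foxp3 (15 columns left of the line) or with Gpm6b and no Foxp3 (29 columns right of it). Il2ra is filled in 6 columns on the left and in none on the right, and Nrp1 runs through both sides.

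To see which other genes shared the pattern of Foxp3, the UMI rates of the 15 Foxp3-positive CD4-only barcodes were set against those of the 354 Foxp3-negative ones. The positive barcodes were deeper, at a median of 4437 against 3362.5 UMIs, and 1 of the 15 was low-ribosomal against 140 of the 354. Ikzf2 stood at 6.27 UMIs per 10000 in the positive and 1.10 in the negative barcodes, a ratio of 5.68 (4.03 to 7.88). Without the positive barcode richest in Ikzf2, which held 14 of the 49 UMIs, the ratio was 4.15, without low-ribosomal barcodes 6.52, and after thinning 3.59. Nrp1 had a ratio of 2.82 (1.48 to 4.99), which was 1.15 after thinning and 8.12 when T barcodes of any coreceptor were compared. Izumo1r was at 1.70 (0.794 to 3.26) and Gpm6b at 0.537 (0.0637 to 2.02, both UMIs in 1 barcode), and both intervals span 1. With T barcodes of any coreceptor these 2 ratios were 6.75 and 2.37. That setting also places CD8-only barcodes, where the pooled rate of every member was lower, among the Foxp3-negative ones. Of these 4 members with at least 20 UMIs, 1 reached 4-fold, as did 45 of 7788 genes (0.578%), and the median ratio of all genes was 0.844. Il2ra had 6 UMIs in the positive and 5 in the negative barcodes, and Ikzf4 had 2 and 15.

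Among the 10 genes with the highest ratios, most rested on very few barcodes. Klrg1, an inhibitory receptor of differentiated T and NK cells, reached 45.6 with 18 UMIs that all came from 1 barcode, and Rpgrip1, Rfk and Ppm1l likewise rested on 1 barcode each, so that all 4 ratios were 0 without it. Anxa1, encoding annexin A1, had a ratio of 22.4 from 2 barcodes and 6.95 without the richer one. Phkg1 was at 21.3, or 10.8 without its richest barcode, and Unc119, Gstt2 and Morrbid were at 11.8, 6.93 and 5.91, or 5.77, 3.63 and 2.10 without theirs. Ccdc22, the neighbour that overlaps Foxp3, was the most evenly spread of the 10, with a ratio of 6.82 over 7 barcodes and 6.03 without its richest barcode.

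Several regulatory T cell surface receptors were higher in the Foxp3-positive barcodes. Of 10 such genes with at least 20 UMIs, 4 had an interval above 1 and none below, with a median ratio of 1.48, whereas 5.34% of all genes lay above 1 and 5.29% below. Tnfrsf4 (OX40) was at 5.66 (2.94 to 10.3) over 6 barcodes, or 5.06 without the richest. Ctla4, which competes with CD28 for its ligands, was at 3.32 (1.89 to 5.54), or 2.15 without its richest barcode. Tnfrsf18 (GITR) was at 2.51, or 1.77, and Klrg1 was the gene of the single barcode named above. Pdcd1 at 0.322, Tnfrsf1b at 0.644 and Lag3, with 0 UMIs against 36, lay on the other side of 1. The intervals of Pdcd1, Tnfrsf1b and Lag3 span 1. In IL-2 receptor signalling 3 of 10 lay above 1 and none below, with a median of 1.08. They were the shared receptor chains Il2rb at 3.88 and Il2rg at 1.39 and the STAT5 target Cish at 3.54. Without their richest barcode they were at 1.89, 1.26 and 1.73. That barcode was the same for all 3, the deepest of the class with 14103 UMIs and 1 Foxp3 UMI. With T barcodes of any coreceptor Il2rb was at 1.14. Of the effector molecules 2 could be measured, with a median of 3.48. Lgals1 (galectin-1) lay above 1 at 5.63, or 2.68 without the same deepest barcode, which held 83 of its 136 UMIs. Il10, Il12a and Areg had no UMI in the CD4-only class.

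T cell transcription factors went the other way, with none of 17 above 1 and 6 below, and a median of 0.682. Among the 6, the lowest were the genome organiser Satb1 at 0.136 (0.0722 to 0.233), Bach2 at 0.309 and Tcf7 at 0.314, both known from naive and memory T cells, and Id2 at 0.401. Lef1, the partner of Tcf7, was at 0.408. Id3 and Myb had no UMI in the positive barcodes and 31 and 50 in the negative ones, with intervals that span 1. Because the positive barcodes held fewer low-ribosomal ones, the values without low-ribosomal barcodes are given beside them, 0.279 for Satb1, 0.608 for Bach2, 0.343 for Tcf7 and 0.678 for Lef1. With T barcodes of any coreceptor Satb1 was at 0.449, Bach2 at 0.684 and Lef1 at 0.682. Homing receptors were split, with 3 of 10 above 1, 4 below and a median of 0.793. The chemokine receptors Ccr4 and Ccr2 were both at 4.43 with 4 UMIs each, Ccr2 at 2.35 without its richest barcode, and the gut-homing integrin chain Itgb7 at 1.71, while Itga4 was at 0.360 (1.19 with T barcodes of any coreceptor, on the other side of 1), Ccr7 at 0.577, Il7r, the IL-7 receptor that regulatory T cells carry at low levels, at 0.600, and S1pr1 at 0.653. None of 4 helper T cell genes lay off 1, with a median of 0.803. Of 5 measured paralogues of the members, Ikzf3 lay above 1 at 1.56, or 1.15 without its richest barcode. Foxp1 at 0.531 and Ikzf1 at 0.549 lay below, and the median of the 5 was 0.998. Folr1, Folr2, Gpm6a and Foxp2 had no UMI in the CD4-only class. Of the other lineages, the B cell, monocyte, neutrophil, erythroid and SCLC tumour cell markers had 0 UMIs in the 15 positive barcodes, the platelet markers 1 against 168 in the negative ones, and the NK cell markers 3 UMIs in 1 barcode.

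Split by Gpm6b, the same class gave high ratios for Nrp1, Izumo1r and several inhibitory receptors. The 30 Gpm6b-positive CD4-only barcodes were close in depth to the 339 negative ones, at medians of 3565 and 3374 UMIs. Nrp1 had 42 UMIs in the positive and 60 in the negative barcodes, a ratio of 8.28 (5.44 to 12.5), and Izumo1r followed at 5.03 (3.26 to 7.60) and Ikzf2 at 2.23 (1.48 to 3.26). Foxp3 had 1 UMI against 28, Ikzf4 1 against 16 and Il2ra 0 against 11. At least 4-fold was reached by Nrp1 and Izumo1r, 2 members, and by 78 of 7788 genes (1%), with a median ratio of 0.946 over all genes. The gene with the highest ratio was Rnf43, a ubiquitin ligase that restrains Wnt receptors, at 14.5 over 9 barcodes. Pdcd1, which encodes the inhibitory receptor PD-1, was next at 12.7 with 29 UMIs over 11 barcodes, or 11.0 without the richest. The adhesion molecule Alcam and the transcription factor Runx2 were both at 8.87, and Alcam was at 5.51 without its richest barcode.

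Of the 10 measured surface receptors 7 had an interval above 1 in the Gpm6b-positive barcodes and none below, with a median of 3.72, against 7.27% of all genes above 1 and 6.1% below. Besides Pdcd1 they were the inhibitory receptors Lag3 at 6.68 (2.69 without the barcode that held 8 of its 13 UMIs), Tigit at 6.42 and Ctla4 at 4.82, and the costimulatory receptors Tnfrsf4 at 5.23, Tnfrsf18 at 2.63 and Icos at 2.11. Transcription factors had 6 of 17 above 1 and 5 below, with a median of 0.911. Id3 at 3.45 (1.55 without its richest barcode), Nfatc1 at 3.21, Batf at 3.03 and Id2 at 3.02 were highest, and Satb1 at 0.0626, Bach2 at 0.106 and Lef1 at 0.205 were lowest. Satb1 rested on 9 UMIs, 8 of them in 1 barcode, and was at 0.00710 without it. With T barcodes of any coreceptor Satb1, Bach2 and Lef1 were at 0.354, 0.415 and 0.479. Among homing receptors the inflammatory chemokine receptor Cxcr3 was at 5.91 while the lymph node receptor Ccr7 was at 0.526. Il2rb was at 3.48. Lgals1 was at 3.13, and at 1.01 without the barcode that held 84 of its 118 UMIs. Tbx21, which encodes the T helper 1 factor T-bet, was at 2.78, or 1.82 without its richest barcode. The lists of effector molecules, IL-2 signalling and helper genes had 1 gene each above 1 and none below, with medians of 2.33, 1.61 and 1.30. The paralogues Foxp1, Ikzf3 and Ikzf1 all lay below 1, at 0.330, 0.420 and 0.701. These barcodes were chosen for Gpm6b alone, and this comparison and that of Foxp3 draw on the same 369 barcodes, so their values stand side by side and are not independent.

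The 369 barcodes were then split into 15 with Foxp3, 29 with Gpm6b and no Foxp3, and 325 with neither, at median depths of 4437, 3564 and 3361 UMIs. Low-ribosomal barcodes numbered 1, 10 and 130. Several genes were high in both positive groups. Ctla4 stood at 2.30 UMIs per 10000 with Foxp3, 2.93 with Gpm6b and 0.502 with neither, Tnfrsf4 at 1.92, 1.65 and 0.227, and Il2rb at 3.84, 3.11 and 0.808. With Foxp3, 1 barcode held 18 of the 30 Il2rb UMIs and 1 held 7 of the 18 Ctla4 UMIs. Others differed between them in pooled rate. Pdcd1 had 1 UMI in the Foxp3 group and 29 in the Gpm6b group, a ratio of rates of 0.0482 (0.00118 to 0.291). Lag3 had 0 UMIs against 13, of which 8 came from 1 barcode. Tigit, at 0.294 (0.0728 to 0.886), and Maf, at 0.297, were also lower in the Foxp3 group. By barcodes, Pdcd1 was found in 1 of 15 with Foxp3 against 11 of 29 with Gpm6b, and Lag3 in 0 against 6. Tigit was found in 2 against 8 and Maf in 3 against 14, and all these numbers are small. Pdcd1, Lag3, Tigit and Maf were named after their values were seen, so their lower rates with Foxp3 are not a test. Among the members, Nrp1 was lower with Foxp3 than with Gpm6b, at 0.490 (0.246 to 0.919), and so was Izumo1r, at 0.437 (0.192 to 0.911), whereas Ikzf2 was higher, at 2.21 (1.38 to 3.59). Of the 49 Ikzf2 UMIs with Foxp3, 14 came from 1 barcode, and Ikzf2 was found in 8 of 15 barcodes against 11 of 29. Nrp1 was found in 7 of 15 against 18 of 29, and Izumo1r in 6 of 15 against 15 of 29. These barcode numbers are too small to set the shares apart. Il2ra stood at 0.768 UMIs per 10000 with Foxp3 and at 0 with Gpm6b. Tcf7 was at 2.56, 7.50 and 8.19 in the 3 groups, so that it was lowest with Foxp3, while Satb1, at 1.66, 0.823 and 13.2, was low in both.

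**Figure D4:**
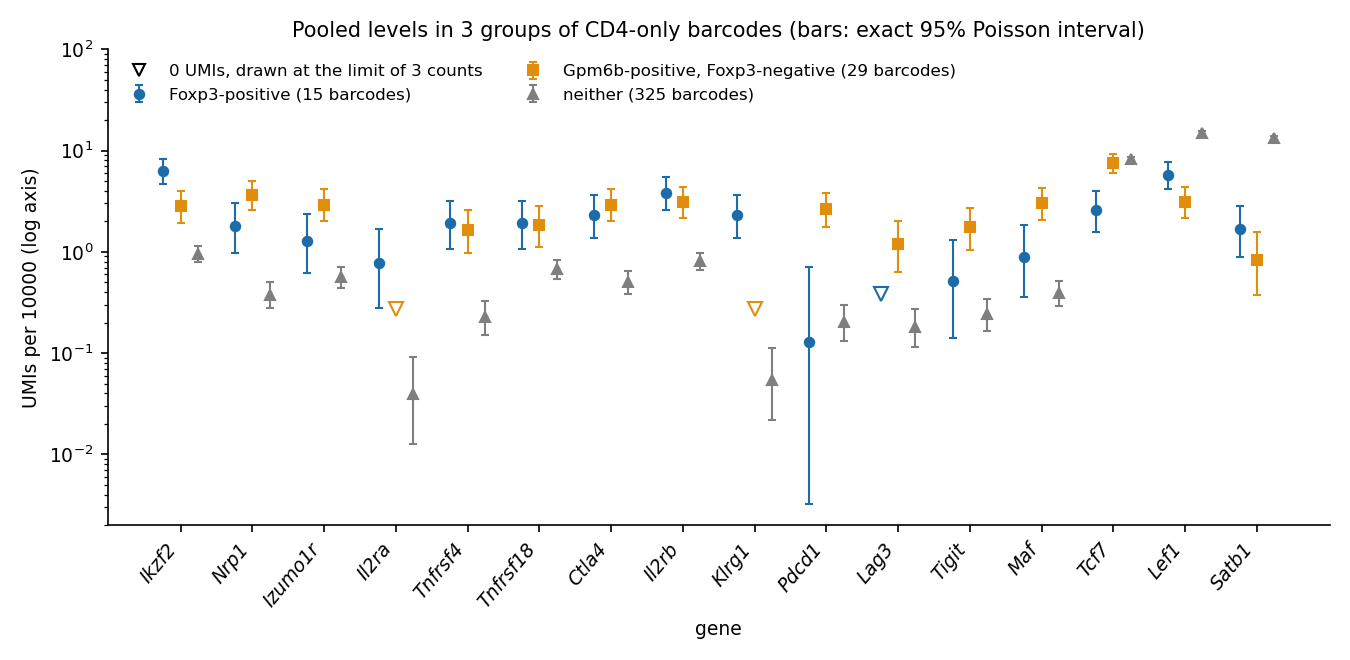
UMIs per 10000 on a log axis, with exact 95% Poisson intervals as bars, for 16 genes in CD4-only barcodes with Foxp3, with Gpm6b and no Foxp3, and with neither, where open triangles are groups at 0 UMIs drawn at the limit of 3 counts. Ctla4, Tnfrsf4 and Il2rb are high in both positive groups, while Pdcd1 stands at 2.65 with Gpm6b and at 0.128 with Foxp3. Of the 30 Il2rb UMIs with Foxp3, 18 lie in 1 barcode. Pdcd1 was found in 11 of 29 barcodes with Gpm6b and in 1 of 15 with Foxp3. The genes were named after their values were seen.

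Split by Nrp1, both Foxp3 and Gpm6b had high pooled ratios at full depth. In the 51 Nrp1-positive CD4-only barcodes, at a median of 3691 UMIs against 3359.5 in the rest and with 25.5% low-ribosomal barcodes against 40.3%, Ikzf2 had 126 UMIs against 76, a ratio of 9.25 (6.90 to 12.5). Foxp3 had 21 against 8, a ratio of 14.6, which was 5.15 without the barcode richest in it. Gpm6b had 37 against 31, a ratio of 6.66 (4.02 to 11.1), and Izumo1r 37 against 77, a ratio of 2.68. After thinning, Foxp3 was found in 1 of 30 Nrp1-positive barcodes against 7 of 250 Nrp1-negative ones. These counts are too few to tell whether the Foxp3 difference held at equal depth. Gpm6b was still found in more of the thinned Nrp1-positive barcodes, in 9 of 30 against 7 of 250. At least 4-fold was reached by 0.963% of 7788 genes. Among those were Socs2, a feedback inhibitor of cytokine signalling, at 14.9, or 9.41 without its richest barcode, and Runx2 at 10.0.

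The CD8-only barcodes were split by Ikzf2. The 62 Ikzf2-positive barcodes had a median of 5275 UMIs and the 657 others 5574, and low-ribosomal barcodes made up 38.7% and 28.0% of them. Of the other members only Nrp1 and Izumo1r had at least 20 UMIs, and neither reached 4-fold, as 0.32% of 9694 genes did. Nrp1 was at 3.68 (1.73 to 7.28), but at 1.25 without the barcode that held 8 of its 12 UMIs, and Izumo1r was at 1.27. Foxp3 and Gpm6b had no UMI in the Ikzf2-positive barcodes and 6 and 7 in the others. Their shares in the others were 0.761% and 1.07%, so 62 barcodes are too few to tell whether they were less frequent with Ikzf2. The genes with high ratios were the Ly49 receptor gene Klra6 at 16.2 (9.68 without its richest barcode), Chn2 at 15.6 (10.6) and the transcription factor gene Sox5 at 12.5 (8.40). Klra7, another Ly49 receptor, was at 8.05 and fell to 2.47 without its richest barcode. Ly49 genes are near-identical copies of one another, so reads may be split between them.

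The ribosomal trait touched the members unequally. Low-ribosomal CD4-only barcodes were shallower, at a median of 2718 UMIs against 4214.5. Foxp3 had 1 UMI in them and 28 in the rest, a ratio of rates of 0.0976 (0.00239 to 0.590). Of the 28 UMIs 14 came from 1 barcode. By barcodes, Foxp3 was found in 1 of 141 (0.709%, 0.0180 to 3.89) against 14 of 228 (6.14%, 3.40 to 10.1), intervals that overlap. In CD8-only barcodes its ratio was 1.05 (0.0222 to 9.37). Izumo1r was low in the same direction, with 12 against 102 UMIs and a ratio of 0.321 (0.161 to 0.586). Ikzf2, by contrast, was higher in low-ribosomal barcodes at 2.52 (1.89 to 3.36), and so was Gpm6b at 1.91 (1.14 to 3.18), where the median over 7705 genes was 1.34. Nrp1 was at 1.09 (0.680 to 1.69). In CD8-only barcodes Ikzf2 was again higher, at 3.62 (2.62 to 4.96) against a median of 1.61. Without low-ribosomal barcodes the Foxp3 split gave 6.52 for Ikzf2 and 2.07 for Nrp1, and the Gpm6b split gave 10.7 for Nrp1 and 4.38 for Izumo1r. For the splits by Nrp1 and by Ikzf2 the part of this trait was not tested.

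**Figure D5:**
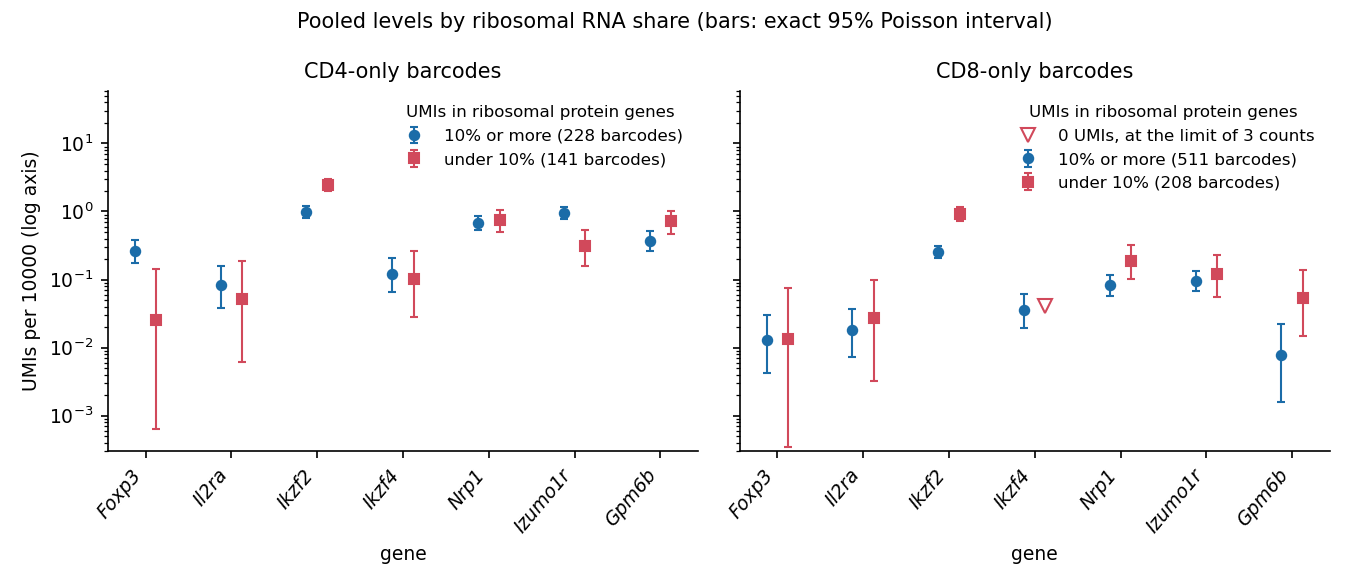
UMIs per 10000 of each member on a log axis, with exact 95% Poisson intervals as bars, in barcodes with under 10% and with at least 10% of UMIs in ribosomal protein genes, for CD4-only and CD8-only barcodes; the open triangle is 0 UMIs drawn at the limit of 3 counts. In CD4-only barcodes Foxp3 and Izumo1r are lower and Ikzf2 and Gpm6b higher in the barcodes under 10%. Of the 28 Foxp3 UMIs in the other CD4-only barcodes, 14 lie in 1 barcode. The interval of the Gpm6b ratio (1.14 to 3.18) takes in the median ratio of all genes, 1.34.

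Few of these barcodes belonged to a clonotype seen more than once, and the share over the whole library is not set beside them. Of the 40 barcodes with Foxp3, 29 had a contig, and 28 of them were the only barcode of their clonotype. The exception was a CD8-only pair that shared TRBV12-1 and TRBJ2-2, of which 1 barcode held 1 Foxp3 UMI and the other none. Its shared CDR3 nucleotide sequence is shown because it is the receptor of the only clonotype with a Foxp3 UMI that was found in more than 1 barcode.
TRB CDR3: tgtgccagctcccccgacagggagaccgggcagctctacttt
The 24 Gpm6b-positive CD4-only barcodes with a contig fell into 24 clonotypes, and 3 of these were clones of at least 2 barcodes in the library, the largest with 2.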

How the data were processed

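Gene expression and TCR contigs were measured in blood T cells of 1 vehicle-treated mouse. The authors processed the reads with Cell Ranger (version 4 per the file headers, GRCm38 per the submitters' processing notes) and deposited unfiltered UMI counts per gene and barcode, not normalized. Whether counting used strand is not given in the sources used here. The members and gene lists were chosen with earlier results of these data known.

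Barcodes with at least 1331 UMIs were kept, a limit equal to the 99th percentile of the 3000 largest totals divided by 10. Classes were called from 1 UMI of Cd4, Cd8a or Cd8b1, and B barcodes from 2 B cell markers with no CD3 UMI. Scrublet predicted 14 doublets among 1600 barcodes, which were kept, and barcodes with both coreceptors entered neither class. Groups were compared by pooled UMIs per 10000 over genes with at least 20 UMIs, with exact (Clopper-Pearson) 95% intervals of shares and of ratios, and 3 counts as the floor for a share of 0. With 1 library no test was made, and barcodes are not replicates. Shares were repeated after thinning to 2500 UMIs. Named genes were the members, the 10 highest ratios to Foxp3 (TCR, immunoglobulin, mitochondrial and ribosomal protein genes left out) and the members of the lists whose interval excluded 1, up to 4 in each direction. Genes of the Gpm6b, Nrp1 and Ikzf2 splits, Lef1 and the genes in the comparison of 3 groups were named after their values were seen. Alternatives changed the UMI limit, class call, low-ribosomal barcodes, contig, doublets, depth, free RNA and minimum. Leaving out the richest barcode, taking T barcodes of any coreceptor and the Gpm6b, Nrp1 and Ikzf2 splits were chosen after seeing the data. The scripts were tested on simulated data. Analyses used Python 3.11.15, scanpy 1.11.5, numpy 2.4.6, scipy 1.17.1, pandas 2.3.3 and matplotlib 3.10.9. One gene of the homing receptor list is not reported here.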

Additional observations from a re-analysis of the deposited data

Results flagged for a closer look

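Of the 40 barcodes with Foxp3, 17 had no Cd4, Cd8a or Cd8b1 UMI and so entered none of the CD4-only and CD8-only comparisons. They are listed here because the signal lies outside the classes compared. Their median depth was 3333 UMIs, and they held 40 Foxp3 UMIs, with at least 2 in 9 barcodes and up to 8 in 1. A CD3 UMI or contig was present in 16 of them and another member in 13, Ikzf2 in 10, Nrp1 in 9, Izumo1r in 6, Il2ra in 5, Ikzf4 in 5 and Gpm6b in 1. Low-ribosomal barcodes made up 8 of the 17.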

How the results depend on the processing

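Of 572 values recomputed under 12 other settings, 496 stayed within their main interval (counts within 1.5 times), 75 moved, and 1 whose interval excluded 1 turned to the other side of 1, Itga4 in the Foxp3 split, from 0.360 to 1.19 with T barcodes of any coreceptor. The number of members at least 4-fold higher in Foxp3-positive CD4-only barcodes, 1 as reported, was 0 after thinning, 2 with a minimum of 10 UMIs, 2 when Foxp3-positive meant at least 2 UMIs, and 5 when T barcodes of any coreceptor were used (Ikzf2 at 9.67, Nrp1 at 8.12 and Izumo1r at 6.75). The share of CD4-only barcodes with at least 2 members ranged from 12.5% to 18.4%, the members at least 4-fold higher in CD4-only barcodes from 3 to 6, and those in Gpm6b-positive barcodes stayed at 2. Genes at least 4-fold higher moved from 128 to 64 (thinned) or 211 (minimum of 10) between the coreceptor classes, from 45 to 101 (classes called on 2 UMIs), 112 (minimum of 10), 381 (Foxp3 on 2 UMIs) or 165 (any coreceptor) for Foxp3, and from 78 to 166 (minimum of 10) or 192 (any coreceptor) for Gpm6b. The Gpm6b ratio in Foxp3-positive barcodes, 0.537, was 1.62 with classes called on 2 UMIs, 1.44 after thinning and 2.37 with any coreceptor, and in the Gpm6b split Foxp3 ranged from 0.408 to 1.37 and Ikzf4 from 0.710 to 2.63, 3 ratios whose intervals as reported span 1. The setting with T barcodes of any coreceptor takes in CD8-only barcodes, so its ratios mix the split with the difference between the coreceptor classes. The cause of these moves was not tested, apart from fewer UMIs after thinning and more genes under the lower minimum. No paired analysis was possible because there was 1 sample. Depth limits Il2ra and Ikzf4, whose UMIs numbered 11 and 17 in the CD4-only class.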

Other observations

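Below the UMI limit, 1908 barcodes from 200 UMIs upwards held no Foxp3 UMI, 34 of Ikzf2, 8 of Gpm6b, 7 of Izumo1r and 5 of Nrp1. Of all Foxp3 UMIs in the matrix, 89 of 110 (80.9%) lay in barcodes at or above the limit. The 3 barcodes with both coreceptors and Foxp3 held 14 Foxp3 UMIs, 12 of them in 1 barcode, and 9 of the 49 barcodes with both coreceptors (18.4%) held at least 2 members.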
